A study of Homo sapiens with 4 samples.

Results

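EGR1, FOSL1, JUN, HBEGF and LIF are 5 genes of the early growth response: a zinc finger transcription factor, a pair of AP-1 subunits and a pair of secreted growth factors. They were picked by gene symbol from 14884 genes with a named probe set, with their difference between origamicin and mock already known. Their values are therefore given as a description, with no test. They had 6 named probe sets among the 53617 on the array, and the brighter of the 2 for EGR1 was used. All 5 genes were among the 11883 whose mean passed a filter on dim probe sets. EGR1, FOSL1, LIF and HBEGF were higher after origamicin while JUN was lower, so the 5 did not move in 1 direction. The genes lie on chromosomes 5 (EGR1 and HBEGF), 11 (FOSL1), 1 (JUN) and 22 (LIF), per RefSeq.

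The study treated SH-SY5Y cells, a human neuroblastoma line of sympathetic origin, with origamicin at 30 µM or with its solvent methanol (mock). Exposure lasted 24 h, the only time measured, and all cells shared the same medium with serum. Total RNA was read on 4 Affymetrix Human Gene 2.0 ST arrays, 2 for origamicin and 2 for mock. The submitters describe origamicin as an inhibitor of protein disulfide isomerase, the enzyme family that forms and rearranges disulfide bonds in the endoplasmic reticulum. The labels call the arrays biological replicates without saying that they came from separate cultures or days, so every error here measures the spread between these arrays.

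EGR1 is an immediate early gene: growth factors, stress and neuronal activity switch it on through ERK signalling and the serum response factor SRF, and its protein binds GC-rich promoter sites. AP-1 is a dimer of a JUN protein with a FOS or ATF family protein, and its DNA preference and strength depend on which subunits pair. HBEGF, made as a membrane-anchored precursor that ADAM proteases release, activates the receptors EGFR and ERBB4. LIF, a cytokine of the IL6 family, acts through LIFR and the shared subunit IL6ST on JAK kinases and STAT3, and it affects differentiation of sympathetic neurons.

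The promoters of EGR1 and JUN are shown because these members differed in opposite directions and their upstream elements are well known. RefSeq promoter sequence on GRCh38.p14 was matched for 3 of the 5 members, EGR1, JUN and HBEGF. The 250 bases before the transcription start were searched on both strands for 8 motifs by exact letters. Capitals mark the matches other than GC boxes in EGR1 (chr5:138465229-138465478, plus strand) and JUN (chr1:58784048-58784297, minus strand), each written in the direction of transcription.
EGR1: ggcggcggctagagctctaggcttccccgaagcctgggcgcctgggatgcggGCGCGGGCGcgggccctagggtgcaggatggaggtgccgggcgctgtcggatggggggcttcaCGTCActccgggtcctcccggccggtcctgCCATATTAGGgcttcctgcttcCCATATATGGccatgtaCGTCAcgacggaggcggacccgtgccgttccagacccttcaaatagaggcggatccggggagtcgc
JUN: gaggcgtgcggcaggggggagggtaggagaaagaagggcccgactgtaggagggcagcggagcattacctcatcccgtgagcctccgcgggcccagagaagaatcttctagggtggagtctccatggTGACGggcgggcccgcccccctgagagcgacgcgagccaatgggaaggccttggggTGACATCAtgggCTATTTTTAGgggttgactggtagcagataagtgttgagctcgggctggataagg

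The EGR1 window held 2 matches to the CArG box, the SRF binding element, at 105 to 96 and 83 to 74 bases before the start. Of 35116 promoter windows of the same length, 1.16% held a CArG box. It also held 2 copies of the core of the cyclic AMP response element, TGACG, on the reverse strand at 135 and 66 bases before the start, a motif present in 21.2% of windows. A match to GCGNGGGCG, the binding site of EGR1 itself, began 198 bases before the start, and 8.41% of windows held such a match. The JUN window held TGACATCA, the element through which JUN and ATF2 dimers are known to act on this gene, 67 to 60 bases before the start. That element was present in 2.37% of windows. A MEF2 site stood 55 to 46 bases before the start of JUN, against 0.515% of windows, and TGACG stood 123 bases before it. Neither window held TGANTCA, the classical AP-1 element found in 6.57% of windows, or the full element TGACGTCA (1.65% of windows, and each such window also counts for TGACG). The HBEGF window was 76.4% G and C, against a median of 58% over all windows. Its matches were 5 GC boxes (GGGCGG, in 42.6% of windows), of which the last 2 share a base. JUN held 2 GC boxes, the first of which shares a base with its TGACG, and EGR1 none. These matches describe letters and are not evidence of binding.

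**Figure D1:**
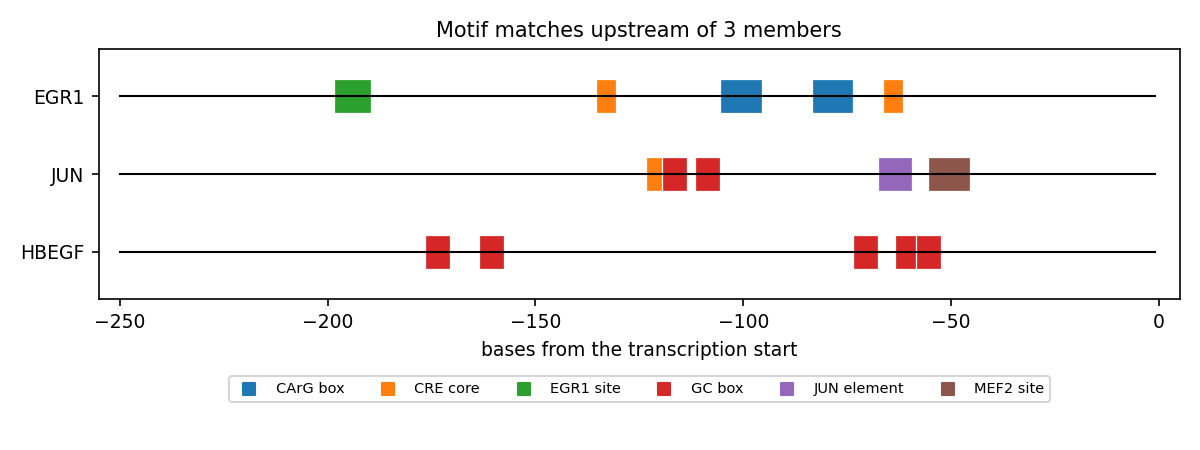
Motif matches in the 250 bases upstream of EGR1, JUN and HBEGF. The x axis gives bases from the transcription start, each row is 1 gene and each coloured block is 1 match on either strand. The CArG boxes lie in EGR1, the MEF2 site and TGACATCA (JUN element) in JUN, and HBEGF shows GC boxes.

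EGR1 had log2 levels of 7.71 and 7.88 on the origamicin arrays, against 6.79 and 6.65 on the mock arrays. The origamicin arrays lay above both mock arrays, and the lowest origamicin value exceeded the highest mock value by 0.92. The difference, origamicin minus mock, was 1.08 ± 0.10 on the log2 scale (moderated SE from the fit over all genes, n = 2 arrays per group), or 2.11-fold. A dimmer probe set also named EGR1, whose target exons and strand are not known here, stood at 4.60 and 4.44 on the origamicin arrays, against 3.90 and 3.84 on the mock arrays. Its groups did not overlap either, and its difference was smaller, at 0.65 ± 0.11 (SE from a separate fit over all 53617 probe sets). Its mock mean was 0.05 above the filter on dim probe sets (3.82), and the part of array background in the smaller difference was not tested. In bulk RNA, a change in the share of cells that make a transcript and a change in transcript per cell cannot be told apart, which holds for every value here.

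FOSL1, which encodes an AP-1 subunit of the FOS family that is stabilised by ERK signalling and lacks a strong activation domain of its own, read 5.90 and 5.94 on the origamicin arrays. On the mock arrays it read 5.19 and 5.13. The arrays of a group lay 0.04 (origamicin) and 0.05 (mock) apart, and the groups were separated by 0.72. The difference was 0.76 ± 0.07, or 1.70-fold.

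JUN, the AP-1 subunit that JNK kinases phosphorylate and that can activate its own promoter, went the other way. It read 7.16 and 7.10 on the origamicin arrays, against 7.75 and 7.67 on the mock arrays. Both origamicin arrays lay below both mock arrays, and the 4 possible pairs of an origamicin and a mock array differed by -0.65 to -0.51. The difference was -0.58 ± 0.07, a 1.50-fold lower level.

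Of the growth factors, LIF read 4.96 and 4.78 on the origamicin arrays, against 4.38 and 4.54 on the mock arrays. The groups did not overlap, but the gap of 0.24 between the lowest origamicin and the highest mock value was only somewhat larger than the distances within groups (0.18 in origamicin, 0.16 in mock). The difference was 0.41 ± 0.10, or 1.33-fold. Its mean was 0.84 above the filter, and below a stricter filter at the 60th percentile of probe sets (4.98).

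HBEGF read 5.65 on each origamicin array and 5.36 and 5.32 on the mock arrays. The groups were separated by 0.28, and its difference was the smallest in size of the 5 members, at 0.30 ± 0.06 or 1.23-fold. The origamicin arrays lay 0.0011 apart and the mock arrays 0.04 apart.

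**Figure D2:**
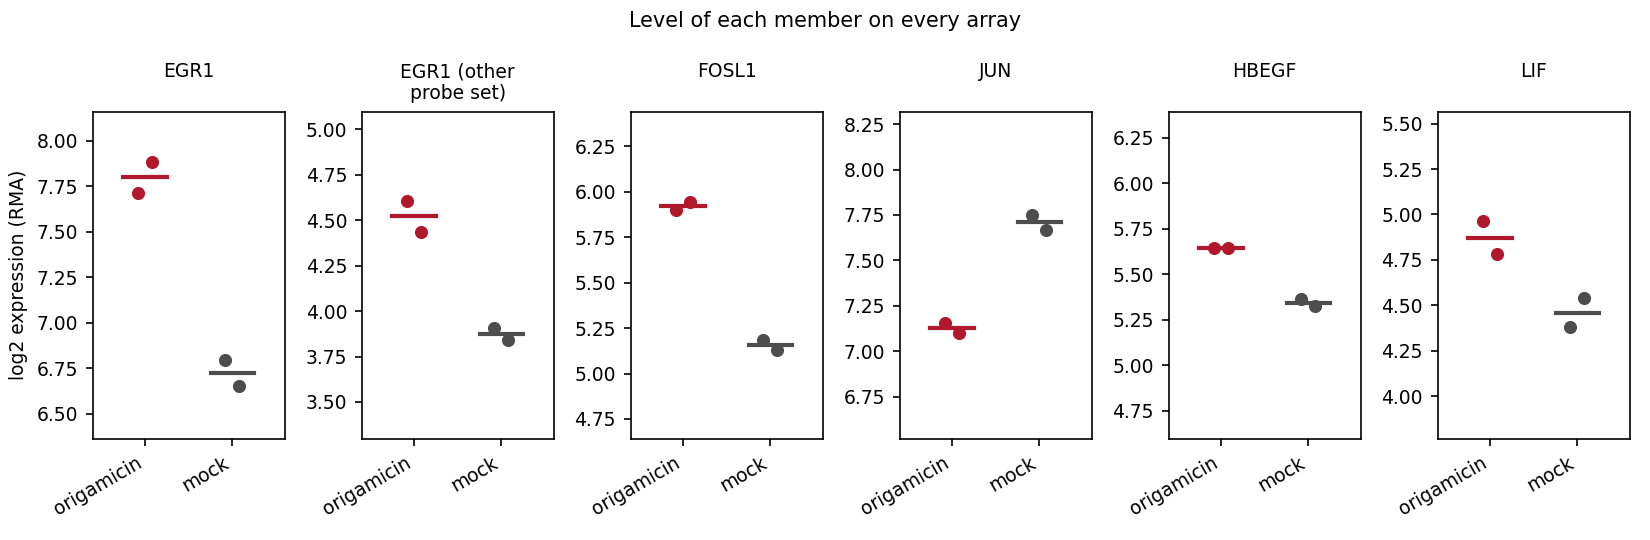
Log2 expression (RMA values) of the 5 members on every array, with the other EGR1 probe set in the second panel. Points are arrays, bars are means of 2 arrays, origamicin is red and mock is grey, and each panel spans the same range of log2 units around its own centre. In no panel do the groups overlap, and JUN is the panel in which origamicin lies below mock.

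The order of the differences from high to low was EGR1, FOSL1, LIF, HBEGF and JUN. EGR1 exceeded FOSL1 by 0.31 with an SE of 0.12, though the other EGR1 probe set (0.65) stood below FOSL1, and FOSL1 exceeded LIF by 0.35 with an SE of 0.12. LIF and HBEGF were 0.11 apart with an SE of 0.12, so their order is within the error. HBEGF and JUN were 0.88 apart with an SE of 0.09. Each SE combines those of both genes as if independent, though all were read on the same 4 arrays. The members were chosen on this contrast, so these SEs describe the order and do not test it. Among the 11883 genes, 7 had a higher difference than EGR1 and 35 a higher one than FOSL1. For LIF that number was 261 and for HBEGF 609, while 73 genes had a lower difference than JUN. Both origamicin arrays lay above both mock arrays for 4 members and below them for JUN. Over all genes tested the first holds for 22.7% and the second for 25.8%, together 48.6%, and since the members were chosen on this contrast nothing is read from their count.

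**Figure D3:**
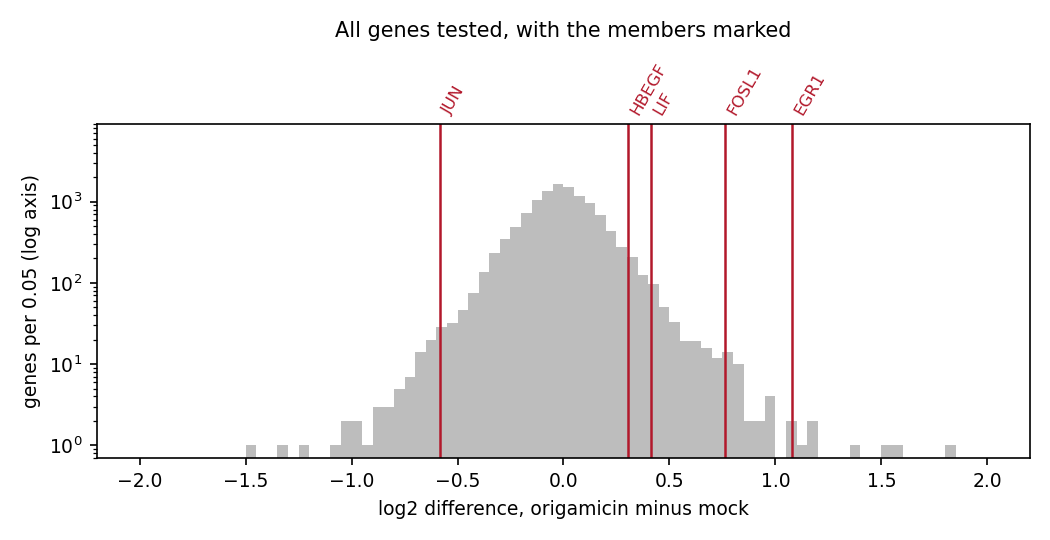
Histogram of the log2 difference, origamicin minus mock, over the 11883 genes tested, with the number of genes per bin on a log axis. Red lines mark the members: JUN (-0.58) stands on the left flank, HBEGF (0.30) and LIF (0.41) within the right flank, FOSL1 (0.76) and EGR1 (1.08) in the right tail.

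Each member was then set beside its relatives and its pathway, on 14 gene lists that hold 144 other genes. Of these, 84 were tested, 12 were dim and 48 had no named probe set and were not analysed here. In the limma fit over all 11883 genes with Benjamini-Hochberg adjustment none of the 84 passed an adjusted p of 0.05, and neither did any other gene (0% called, smallest adjusted p = 0.095). At an unadjusted p under 0.05 in this limma fit there were 19 of the 84 (15 higher, 4 lower). Over all 11883 genes, 16.4% reached it (949 higher, 1001 lower). When the variance was allowed to follow intensity, limma called 9 of the 84, 6 higher and 3 lower, where the share over all genes was 4.3% (2.14% higher, 2.16% lower). Each list's median below is followed by its lowest and highest value over the alternatives, each array left out in turn included. The median difference of the 84 genes was 0.00, against -0.01 over all genes, and 44 were higher and 40 lower. Over all 11883 genes, 5686 were higher and 6195 lower. Genes said below to be called passed when the variance followed intensity, and not in the first fit.

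Within the EGR family, the closest tested relatives of EGR1 showed no difference of its size (1.08, and 0.65 on its other probe set). Because EGR1 was chosen for its difference, this comparison is no test. EGR3 stood at -0.12 ± 0.09 (95% interval -0.35 to 0.11) and EGR4 at -0.04 ± 0.23 (-0.65 to 0.57), on levels near the filter, and EGR2 was not analysed here. NAB2, a corepressor that binds EGR1 and is itself switched on by it, was higher. It read 6.58 and 6.52 on the origamicin arrays, against 6.09 and 6.15 on the mock arrays. Its difference was 0.43 ± 0.07, with a limma adjusted p = 0.16, and 0.047 with an intensity trend. The sister corepressor NAB1 stood at -0.03 ± 0.08. NAB2 was the only call among the 5 other tested genes of the list, whose median was -0.03 (-0.15 without mock replicate 1 to 0.20 with the 60th percentile filter).

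The 5 other AP-1 subunits were all tested and none passed in either fit. FOS, the prototype immediate early subunit, read 5.17 and 5.28 on the origamicin arrays, against 5.03 and 5.00 on the mock arrays. Its groups did not overlap, but its difference of 0.21 ± 0.07 had a limma adjusted p = 0.28, and 0.41 with an intensity trend. With the named probe sets of FOS averaged the difference was 0.05. JUNB stood at -0.08 ± 0.07 and JUND at -0.02 ± 0.07, with 95% intervals of -0.27 to 0.10 and -0.20 to 0.17. FOSB stood at 0.04 ± 0.09 (-0.21 to 0.29) and FOSL2 at -0.08 ± 0.10 (-0.35 to 0.19). Because FOSL1 and JUN were chosen for their difference, the intervals of their relatives are no test against them. The median of the 5 was -0.02 (-0.03 to -0.01). FOSL1 and JUN were thus the subunits at the upper and lower ends of this family of 7, a place that also follows from their being chosen for their difference.

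Among 14 bZIP proteins that pair with FOS or JUN, 8 were tested and none passed. MAFG, a small MAF protein that also partners the oxidative stress factor NFE2L2, came closest at 0.34 ± 0.08 (limma adjusted p = 0.19, and 0.062 with an intensity trend). ATF3, a stress-induced partner of JUN, stood at -0.11 ± 0.08. The median was -0.01 (-0.07 to 0.01), and ATF7, BATF, BATF2, BATF3 and MAFK were among those not analysed here.

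**Figure D4:**
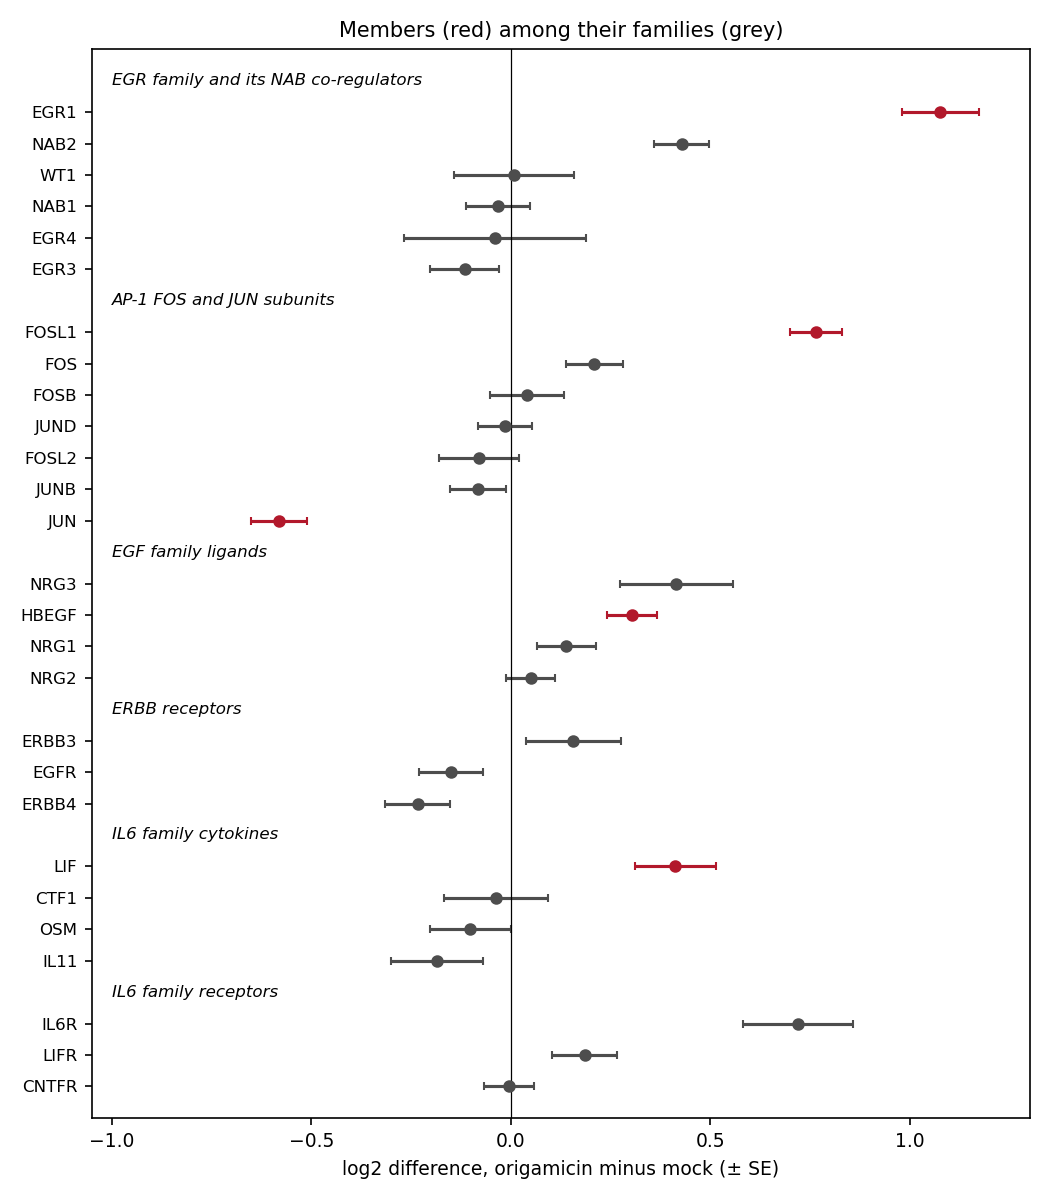
Log2 difference, origamicin minus mock, with its SE (n = 2 arrays per group), for the members (red) and the other tested genes of their families (grey). EGR1 (1.08) and FOSL1 (0.76) lie to the right of every relative, and JUN (-0.58) to the left of every other AP-1 subunit. HBEGF (0.30) lies within the SE bar of NRG3 (0.41), and LIF (0.41) lies to the right of IL11, OSM and CTF1. The members were chosen for their differences, so their place among relatives is no test.

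HBEGF was set beside the other ligands of the EGF family. Of 10, only the neuregulins NRG1, NRG2 and NRG3 were bright enough to test. BTC, EGF, EPGN, EREG and NRG4 were dim, and AREG and TGFA were not analysed here. NRG3 read 4.66 and 5.01 on the origamicin arrays, against 4.35 and 4.49 on the mock arrays. Its difference of 0.41 ± 0.14 did not pass (limma adjusted p = 0.28), was 0.24 without origamicin replicate 2, and cannot be ordered against the 0.30 of HBEGF within the errors. NRG1 stood at 0.14 ± 0.07. The receptors of HBEGF did not pass: ERBB4 stood at -0.23 ± 0.08 (limma adjusted p = 0.28) and EGFR at -0.15 ± 0.08 (adjusted p = 0.44), and ERBB2 was not analysed here. Of 7 ADAM proteases that cut such precursors, none passed and the median was 0.01 (-0.02 to 0.03). ADAM10 stood at -0.12 ± 0.08, ADAM19 at 0.10 ± 0.12 and ADAM17, the main sheddase of HBEGF, at 0.02 ± 0.07.

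While LIF was higher, the 3 other tested cytokines of its family had negative differences, against 6195 of 11883 genes. Because LIF was chosen for its difference, this comparison is no test. IL11 stood at -0.19 ± 0.12, OSM at -0.10 ± 0.10 and CTF1 at -0.04 ± 0.13, none of which passed. Their 95% intervals were -0.49 to 0.12 for IL11, -0.37 to 0.17 for OSM and -0.39 to 0.31 for CTF1. CLCF1, CNTF and IL6 were not analysed here. Of the receptors, LIFR read 6.71 and 6.83 on the origamicin arrays, against 6.53 and 6.63 on the mock arrays. Its difference of 0.18 ± 0.08 did not pass (limma adjusted p = 0.36, and 0.30 with an intensity trend). IL6R, the receptor for IL6 itself, read 4.82 and 4.75 on the origamicin arrays, against 3.89 and 4.25 on the mock arrays. It had the largest difference of the receptors, at 0.72 ± 0.14 (limma adjusted p = 0.17, and 0.068 with an intensity trend), on mock levels close to the filter. OSMR was dim, and IL11RA and the shared subunit IL6ST were not analysed here.

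Among the listed JAK kinases, STAT factors and SOCS inhibitors, all 11 tested genes had a positive difference, against 5686 of 11883 genes. The smallest was that of STAT5A, at 0.00 ± 0.22. The median was 0.12 (range 0.11 to 0.22, the highest without mock replicate 2) against -0.01 over all genes. Signalling by LIF itself was not measured. The number with a positive difference was 10 of 11 with equal medians, with quantile normalization, with probe sets averaged or without mock replicate 2, and 9 without origamicin replicate 1. Both origamicin arrays lay above both mock arrays for 7 of the 11, against 22.7% of all genes. JAK1, a kinase bound to IL6ST, read 9.78 and 9.66 on the origamicin arrays, against 9.33 and 9.32 on the mock arrays. Its difference was 0.39 ± 0.07, with a limma adjusted p = 0.17, and 0.015 with an intensity trend. STAT3, the transcription factor activated by LIF, read 9.41 and 9.28 on the origamicin arrays, against 9.06 and 9.09 on the mock arrays. Its difference was 0.27 ± 0.08 (limma adjusted p = 0.23, and 0.048 with an intensity trend). Of the inhibitors, SOCS1 stood at 0.35 ± 0.06 with groups that did not overlap and did not pass (limma adjusted p = 0.17, and 0.26 with an intensity trend). SOCS3, a direct STAT3 target that limits the signal, stood at 0.04 ± 0.07 (95% interval -0.13 to 0.22). PIAS3 was among the genes not analysed here.

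Upstream of EGR1 and JUN, SRF stood at 0.12 ± 0.06 and its cofactor gene MRTFB at 0.14 ± 0.07, neither of which passed, and ELK1, ELK3 and ELK4 were not analysed here. Of 9 tested kinases of the JNK, p38 and ERK cascades, 8 had a negative difference, against 6195 of 11883 genes. Their median was -0.13 (-0.18 to -0.10). The call among the 9 kinases was MAP2K6, an activator of p38. It read 7.66 and 7.94 on the origamicin arrays, against 8.73 and 8.78 on the mock arrays. Its difference was -0.96 ± 0.11 (limma adjusted p = 0.11, and 0.0043 with an intensity trend). BRAF, MAP2K7, MAP3K1, MAPK14 and MAPK8 were among those not analysed here, so the JNK branch is covered only in part.

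Other immediate early genes were read after 24 h of exposure only, so a response at earlier times was not measured. They went both ways: of 15 tested, 8 were higher and 7 lower, with a median of 0.07 (0.01 without mock replicate 2 to 0.08). Those called were lower. MYC, the growth-promoting transcription factor, read 7.98 and 8.08 on the origamicin arrays, against 8.94 and 9.07 on the mock arrays. Its difference was -0.97 ± 0.08 (limma adjusted p = 0.095, and 0.0019 with an intensity trend). RHOB, an endosomal GTPase, stood at -0.40 ± 0.07 (limma adjusted p = 0.16, and 0.015 with an intensity trend). IER2 at 0.36 ± 0.09 and IER5 at 0.31 ± 0.07, a pair of early response genes, came closest on the higher side. Their limma adjusted p was 0.20 for IER2 and 0.19 for IER5, and with an intensity trend 0.064 and 0.065. The MAP kinase phosphatase gene DUSP1 stood at -0.13 ± 0.07 and DUSP5 at 0.29 ± 0.13, and neither passed. BTG1, BTG2, CCN1, GADD45B, NR4A1, NR4A2, NR4A3, PPP1R15A, ZFP36 and ZFP36L1 were not analysed here.

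Few textbook targets could be read. Of 15 targets of AP-1, 5 were tested, 5 were dim (CD44, CXCL8, MMP1, MMP10 and MMP13) and the others, MMP3, MMP9, PLAU and PLAUR among them, were not analysed here. TIMP1, an inhibitor of matrix proteases, read 8.18 and 7.99 on the origamicin arrays, against 7.42 and 7.60 on the mock arrays. Its difference was 0.58 ± 0.11 (limma adjusted p = 0.17, and 0.022 with an intensity trend). CCND1, the G1 cyclin, stood at 0.23 ± 0.06 (limma adjusted p = 0.22, and 0.029 with an intensity trend). The median of the 5 was 0.07 (-0.04 with probe sets averaged to 0.16 without mock replicate 2). Of 11 targets of EGR1, 4 were tested, FLT1 was dim, and the others, CDK5R1, CDKN1A, F3, GADD45A and TGFB1 among them, were not analysed here. Fibronectin (FN1) read 8.66 and 8.54 on the origamicin arrays, against 8.29 and 8.16 on the mock arrays. Its difference was 0.37 ± 0.08 (limma adjusted p = 0.18, and 0.031 with an intensity trend). The growth factor genes PDGFA and PDGFB stood at -0.02 ± 0.09 and -0.18 ± 0.10, and the median of the 4 was -0.09 (-0.14 without mock replicate 2 to 0.09 with the 60th percentile filter).

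**Figure D5:**
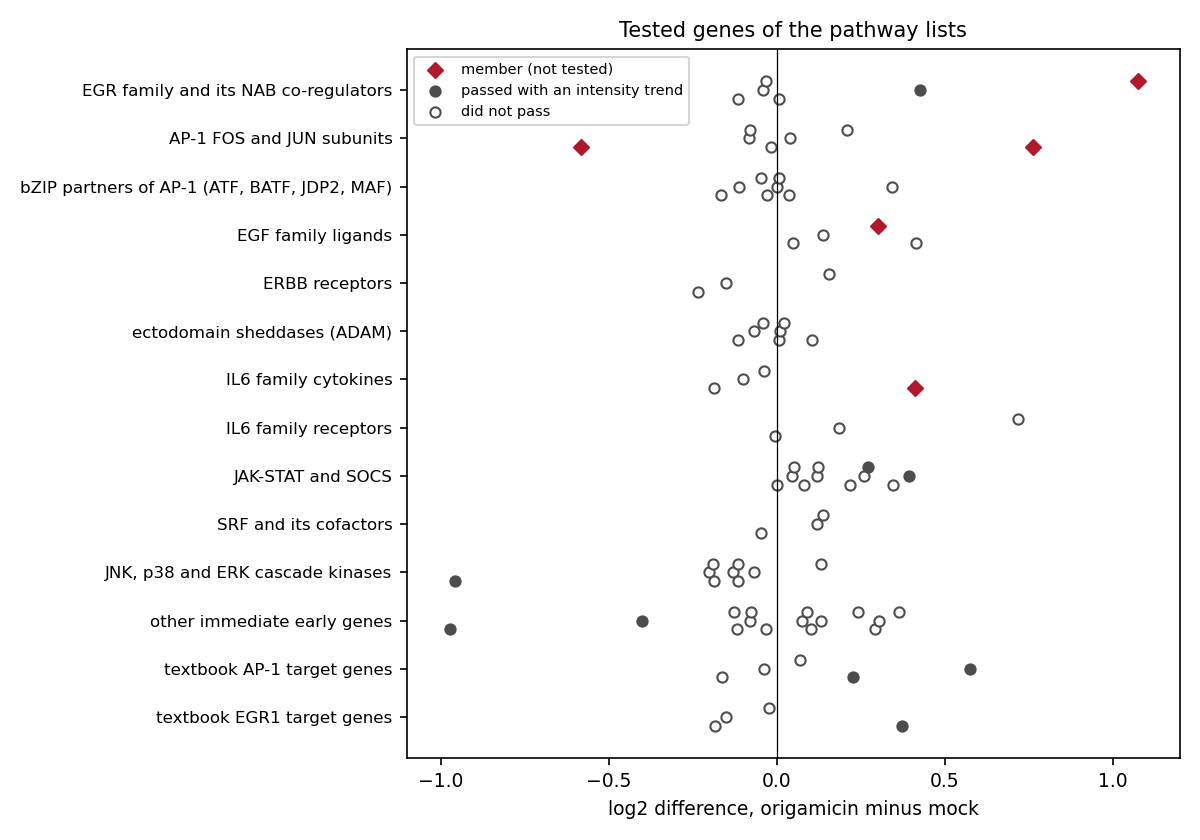
Log2 difference, origamicin minus mock, of every tested gene on the 14 lists, 1 row per list (points are offset vertically for legibility). Red diamonds are the members, filled circles passed an adjusted p of 0.05 in the limma fit with an intensity trend, and open circles did not. The 11 JAK-STAT and SOCS genes lie at or to the right of 0 (9 to 11 of 11 do when an array is left out, 10 with equal medians), and the called genes on the left are MAP2K6, MYC and RHOB.

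Over the genes tested, Pearson's r was 0.994 between the origamicin arrays, 0.995 between the mock arrays and 0.991 to 0.992 across groups. The cells carried the marker genes of noradrenergic neuroblastoma (DBH between 12.3 and 12.5 on all arrays). The mean log2 level of 10 such markers was 9.58 and 9.60 on the origamicin arrays, against 9.86 and 9.91 on the mock arrays. Of these markers 9 of 10 were lower, against 6195 of 11883 genes. CHGA (-0.80 ± 0.09), CHGB (-0.76 ± 0.08), DDC (-0.59 ± 0.06) and ISL1 (-0.30 ± 0.07) were called with the trend, while GATA3 (-0.02 ± 0.06) and TH (-0.01 ± 0.12) lay near 0. FOSL1, TIMP1 and FN1 are also known from mesenchymal neuroblastoma cells. A list of 8 tested mesenchymal markers without FOSL1 had a mean log2 level of 7.07 and 6.99 on the origamicin arrays, against 6.91 and 6.89 on the mock arrays. In it 6 of 8 were higher, against 5686 of 11883 genes. With an intensity trend VIM (0.45 ± 0.07), FN1 and SNAI2 (0.30 ± 0.08) passed upward and LOX (-0.45 ± 0.08) downward. The marker gene YAP1 stood near the filter (4.27 to 4.39). Glial markers averaged 4.73 and 4.83 on the origamicin arrays, against 4.68 and 4.77 on the mock arrays, and none of the 5 tested passed. The part of these marker levels in the values of the members was not tested.

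The genes whose pattern over the 4 arrays lay nearest to each member were found by the root mean square difference of values centred on each gene's mean. This measure mainly picks genes with a like difference between the groups, and the nearest genes carry no further claim. For EGR1 they were BLVRB (0.08), RORB (0.11) and MIR4521 (0.11), where the median over all genes was 0.55. BLVRB, a biliverdin reductase, read 8.71 and 8.71 on the origamicin arrays, against 7.78 and 7.50 on the mock arrays. For FOSL1 they were the thioredoxin reductase TXNRD1 (0.03), LHFPL6 (0.04) and the inositol phosphate kinase ITPKB (0.04), against a median of 0.40. For JUN they were VLDLR-AS1 (0.01) and a pair of transcriptional corepressor genes, RCOR2 (0.02) and TBL1X (0.04), against a median of 0.30. RCOR2 read 8.34 and 8.31 on the origamicin arrays, against 8.99 and 8.91 on the mock arrays. For HBEGF they were CHP1 (0.01), the synaptotagmin SYT5 (0.01) and MGA (0.01), against a median of 0.18. For LIF they were the chemokine receptor CX3CR1 (0.02), EPHX3 (0.03) and MTSS2 (0.04), against a median of 0.24. CX3CR1 read 4.29 and 4.06 on the origamicin arrays, against 3.70 and 3.87 on the mock arrays. Its mock mean lay below the filter (3.82), so it passed only through its origamicin values. The members were not each other's nearest genes: 119 other genes lay nearer to FOSL1 than EGR1 did, and 11 lay nearer to EGR1 than FOSL1 did. To HBEGF 1757 genes lay nearer than LIF, and to LIF 376 lay nearer than HBEGF. To JUN 11064 genes lay nearer than HBEGF, the nearest other member. These counts mainly restate the differences on which the members were chosen.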

How the data were processed

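The deposited table holds log2 expression per probe set for 4 arrays. RMA and limma are named, without versions, per the submitters' processing notes. Their build and annotation are not stated in these sources. The authors' own log2 values had array medians between 4.37 and 4.42 and were not normalized again. A platform annotation named 1 gene for 16098 of 53617 probe sets, several genes for none, and left 37519 unnamed here. For each of 14884 genes the probe set with the highest mean was used, and 3001 genes with a mean under 3.82, the 40th percentile over probe sets, were left out, leaving 11883. limma 3.58.1 in R 4.3.3 (lmFit, eBayes with a single prior variance, no covariate, two-sided) compared origamicin with mock, adjusting over 11883 genes. An exact permutation test of 2 against 2 arrays cannot go below p = 0.333 and was not used. Arrays have no counting depth; their number limits the precision. Fits were tested on simulated data. The members and gene lists were chosen with earlier results of these data known. Genes named from a list are those past an adjusted p of 0.05 in either limma fit, otherwise the 2 with the smallest p; others named were chosen after their values were seen. Each member's 3 nearest genes were named. Over all genes tested, same-numbered arrays did not deviate together (r = -0.023). With 2 arrays per group this value cannot show whether equal numbers mark matched cultures, and the main fit left the arrays unpaired. Alternatives are given in the closing section.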

Additional observations from a re-analysis of the deposited data

How the results depend on the processing

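The count of genes past an adjusted p of 0.05 in limma was 0 in the fit used here, 511 with an intensity trend in eBayes, and 92 with a filter at the 60th percentile, 91 of them also called with the trend. It was 0 with a replicate block, without a filter, with array medians made equal, with quantile normalization, with probe sets averaged per gene, with robust eBayes and with all probe sets in place of genes, and it ranged from 0 to 0 when each array was left out. With the replicate block, 1718 genes reached an unadjusted p under 0.05, against 1950 without it. Leaving out each array gave 1261 to 1669: 1270 without mock replicate 1, 1261 without mock replicate 2. The difference of EGR1 was 0.86 with its probe sets averaged and 0.65 on its other probe set. Leaving out each array in turn gave 0.99 to 1.16 for EGR1, 0.74 to 0.79 for FOSL1, -0.62 to -0.54 for JUN, 0.28 to 0.32 for HBEGF and 0.32 to 0.50 for LIF. Equal medians and quantile normalization moved no member by more than 0.0187; the filter, block and eBayes settings keep a member's value by construction, and LIF has none under the 60th percentile filter. Medians of small lists are unstable: that of the EGR family was 0.20 with the 60th percentile filter, that of EGR1 targets 0.09 with it, and that of AP-1 targets -0.04 with probe sets averaged. FOS stood at 0.05 with probe sets averaged. Of 25 list genes named by the rule, MAP2K6 and MYC also passed with that filter (adjusted p = 0.038 and 0.033), and ADAM19 changed sign, at -0.036 without origamicin replicate 2 and up to 0.24 without origamicin replicate 1. Median differences of all genes stayed between -0.02 and 0.00 in these settings. Levels near the filter limit what LIF and the second EGR1 probe set can show.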
